A study of Homo sapiens with 8 samples.

Results

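The miR-23, miR-27 and miR-24 microRNAs of HEK293 cells, an established human embryonic kidney line, are described here as counted in small RNA libraries. They come from 2 paralogous gene clusters, MIR23A, MIR27A and MIR24-2 on chromosome 19 and MIR23B, MIR27B and MIR24-1 on chromosome 9. Entries were taken by name, as any miR-23a, miR-23b, miR-24, miR-24-1, miR-24-2, miR-27a or miR-27b with or without an arm, and 7 of the 2867 entries of the table (903 of them known microRNAs) matched. All 7 are 3p arms, cut from the 3′ side of their hairpins, so the use of 5p arms was not analysed here. The libraries are 4 from HEK293 cells transfected with 100 nM of an antisense oligonucleotide (ASO) and 4 from HEK293 cells given no ASO, called controls, all harvested after 48 h. By the library names the ASO is directed at miR-31, whose precursor hairpin it is meant to bind, and the submitters asked whether it had effects beyond that target. No group received an unrelated ASO, so an effect of this ASO and an effect of any ASO cannot be told apart. The titles do not say whether the controls were mock-transfected.

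A microRNA is cut from a hairpin precursor, and its bases 2 to 8, the seed, pair with target mRNAs. The hairpins of each cluster lie on a shared primary transcript, so they can be transcribed together, while each hairpin is then processed by itself. miR-23 is known for repressing glutaminase in MYC-driven cells, miR-27 for repressing the fat cell regulator PPARG, and miR-24 for repressing E2F2 and MYC in cells that stop dividing. The clusters have also been studied in vessel growth, where miR-23 and miR-27 repress Sprouty2 and Sema6A.

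The mature sequences below, from RefSeq (GRCh38.p14, matched by name for all 7 entries), are shown because paralogs from the clusters differ by so little. Capitals mark the seed, and each is written 5′ to 3′.
miR-23a-3p: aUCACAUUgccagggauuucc
miR-23b-3p: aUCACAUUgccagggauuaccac
miR-27a-3p: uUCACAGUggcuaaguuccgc
miR-27b-3p: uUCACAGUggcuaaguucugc
miR-24-3p: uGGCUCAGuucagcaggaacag

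Counting from the 5′ end, miR-23a-3p and miR-23b-3p share 20 of their first 21 bases, with the substitution U19A from miR-23a-3p to miR-23b-3p, and miR-23b-3p has 2 further bases at its 3′ end. miR-27a-3p and miR-27b-3p share 20 of 21 bases, with the substitution C19U from miR-27a-3p to miR-27b-3p. Paralogs thus share their seed, and a read must reach base 19 to tell them apart. miR-24-3p has the same sequence in both clusters. In the MIR24 hairpins, shown to place it, capitals mark the mature 3p arm, and the rest of the hairpins differ.
MIR24-2 (chr19:13836287-13836359, minus strand): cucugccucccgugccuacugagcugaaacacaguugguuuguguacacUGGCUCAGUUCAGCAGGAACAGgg
MIR24-1 (chr9:95086021-95086088, plus strand): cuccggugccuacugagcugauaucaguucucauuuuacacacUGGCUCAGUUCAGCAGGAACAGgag

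On chromosome 19 the 3 hairpins span 373 bases on the minus strand, with MIR23A at 13836587 to 13836659, MIR27A at 13836440 to 13836517 and MIR24-2 downstream (GRCh38). They lie in an exon of AC020916.1, a noncoding gene on the same strand in GENCODE 29, where RefSeq places the host gene MIR23AHG. On chromosome 9 they span 881 bases on the plus strand, with MIR23B at 95085208 to 95085304, MIR27B at 95085445 to 95085541 and MIR24-1 downstream. MIR23B and MIR27B lie in an intron of C9orf3, the aminopeptidase gene that RefSeq calls AOPEP, and MIR24-1 overlaps an exon of 1 of its transcripts marked for nonsense-mediated decay.

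Total counts per library were 10082129 to 11677123 with ASO and 8168828 to 11228954 in controls. Levels are CPM, counts relative to the library's total over the 745 entries tested, with TMM scaling between libraries. Each group's mean is followed by the SD of its 4 libraries. The ASO's target miR-31-5p stood at 776, 916, 1018 and 637 CPM in ASO libraries 1 to 4, against 350, 657, 880 and 1056 CPM in control libraries 1 to 4. It was not lower with ASO beyond the spread (log2 fold change 0.19, SE 0.33, edgeR adjusted p = 0.851), so these levels do not check the labels. Control library 1 was the lowest of the 8 libraries for all 7 members, as it was for 32.7% of the 539 known microRNAs tested. For 24.9% of them it was the highest, and results are also given without it. Separate cultures are not named in the labels, and p-values here thus reflect the spread among these libraries alone, part or all of which may be technical.

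The chromosome 9 member miR-27b-3p was the most abundant, and the order miR-27b-3p, miR-24-3p, miR-23b-3p, miR-27a-3p and miR-23a-3p held in 8 of 8 libraries. Ligation and PCR favour some sequences, so this is an order of counts rather than of molecules. By mean level the 5 ranked 19, 62, 72, 81 and 97 among the 903 entries for known microRNAs. These are ranks of entries, as miR-24-1-3p, with nearly the same counts as miR-24-3p, ranked 61. The range of miR-27a-3p over the 8 libraries overlapped that of miR-23b-3p, while the other neighbours in the order had separate ranges. Counting miR-24 once, miR-27b-3p made up 72.5% to 76.6% of the counts of the clusters.

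With ASO, miR-27b-3p stood at 17351, 18270, 15617 and 15547 CPM in libraries 1 to 4. Controls 1 to 4 stood at 12816, 15825, 16330 and 17524 CPM. Control 1 was the lowest and the groups overlapped, with means of 16696 ± 1340 CPM for ASO and 15624 ± 2003 CPM for control libraries. Its log2 fold change was 0.096 (SE 0.10, 95% interval −0.15 to 0.34; edgeR quasi-likelihood adjusted p = 0.758), or 0.026 leaving out control 1, 0.050 leaving out ASO library 2, 0.16 leaving out ASO library 3 and 0.14 leaving out control 4.

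miR-27a-3p, its chromosome 19 paralog, had 1079, 1091, 1357 and 1138 CPM in ASO libraries 1 to 4, from 10516, 12912, 15093 and 11714 counts. It had 961, 1040, 995 and 1019 CPM in control libraries 1 to 4, from 9683, 9730, 8256 and 11542 counts. All 4 ASO libraries lay above all 4 controls, ASO library 3 far above the rest, at means of 1166 ± 130 CPM for ASO and 1004 ± 34.1 CPM for control libraries. The log2 fold change was 0.22 (SE 0.08, 95% interval 0.02 to 0.41), a fold of 1.16, and did not pass the threshold (edgeR adjusted p = 0.445). It was 0.17 leaving out ASO library 3, 0.21 leaving out control 1 and 0.14 with quantile normalization.

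miR-23b-3p stood at 1645, 1824, 1805 and 1711 CPM in ASO libraries 1 to 4, against 1081, 1426, 1521 and 1607 CPM in control libraries 1 to 4. The groups did not overlap, by a margin of ASO library 1 over control library 4, and averaged 1746 ± 83.3 CPM over ASO libraries and 1409 ± 231 CPM over controls. The log2 fold change of 0.31 (SE 0.12, 95% interval 0.03 to 0.59), a fold of 1.24, did not pass (edgeR adjusted p = 0.445). Without control library 1 it was 0.22, and with quantile normalization 0.16.

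miR-23a-3p, the least abundant member, had the widest spread, with its highest library at 2.54 times its lowest. It had 678, 875, 745 and 727 CPM in ASO libraries 1 to 4, from 6605, 10362, 8280 and 7481 counts. Control libraries 1 to 4 had 345, 509, 623 and 671 CPM, from 3472, 4756, 5172 and 7598 counts. Control library 1 was the lowest by far, and ASO library 1 stood just above control library 4, so the groups did not overlap on this scale. With CPM on library totals, without TMM scaling, they overlapped. Even the smallest count gave a Wilson 95% interval of 320 to 342 CPM on library totals, without TMM scaling. That is far narrower than the spread between libraries. Means were 756 ± 84.3 CPM over ASO libraries and 537 ± 145 CPM over controls, and the log2 fold change was 0.49 (SE 0.20, 95% interval 0.02 to 0.97), a fold of 1.41. It did not pass the threshold (edgeR adjusted p = 0.445), and without control library 1 it was 0.34 (edgeR adjusted p = 0.605), against a control mean of 601 ± 83.4 CPM over the other 3.

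**Figure D1:**
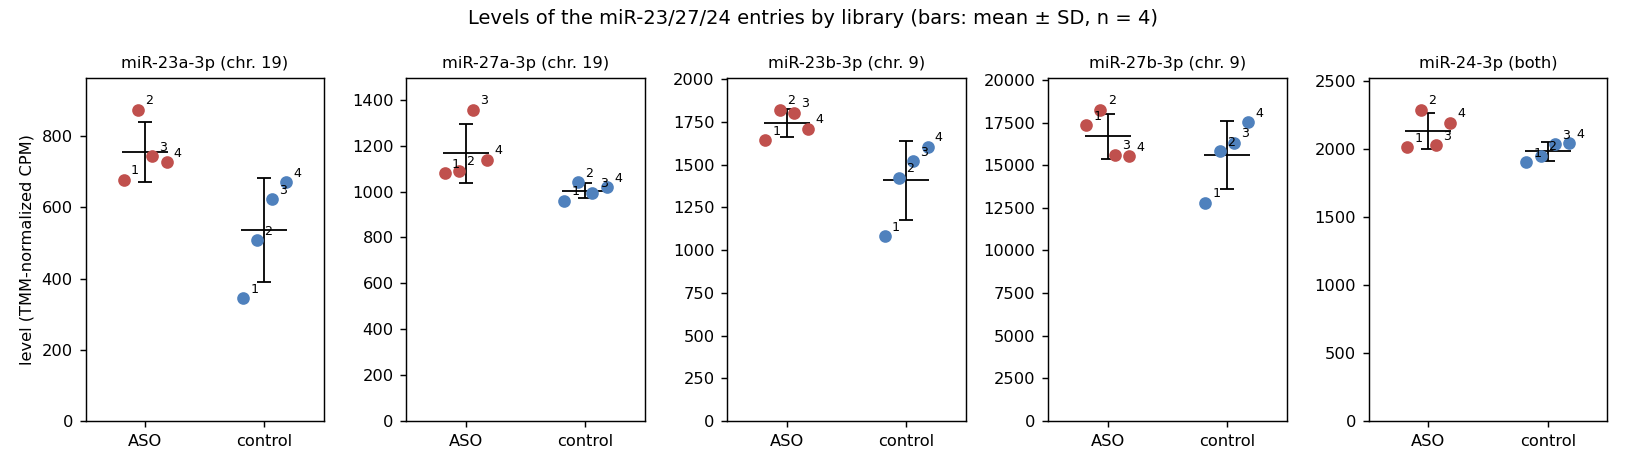
TMM-normalized CPM (y axes from 0, a scale for each panel) of the 5 separable entries in the 4 ASO and 4 control libraries, numbered by library, with mean ± SD. Control library 1 is the lowest point of each panel, and ASO points lie above all controls for miR-23a-3p, miR-27a-3p and miR-23b-3p.

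miR-24 cannot be assigned to a cluster from this table. The entries miR-24-3p and miR-24-2-3p held identical counts in all 8 libraries, and miR-24-1-3p exceeded them by 51 to 107 counts, which is 0.226% to 0.472% of its own count. This excess averaged 77.0 ± 27.7 counts with ASO and 67.5 ± 15.7 counts in controls (exact permutation test, two-sided, p = 0.571). All 3 entries are listed at a length of 20, and RefSeq gives 22 bases for the mature sequence. Listed lengths also differed from RefSeq for miR-23a-3p (22 against 21) and miR-23b-3p (24 against 23), but not for miR-27a-3p and miR-27b-3p.

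miR-24-3p stood at 2012, 2289, 2025 and 2192 CPM in ASO libraries 1 to 4, and at 1901, 1950, 2036 and 2040 CPM in control libraries 1 to 4. The groups overlapped, and this was the steadiest of the separable members. Means were 2129 ± 134 CPM over ASO libraries and 1982 ± 68.2 CPM over controls (log2 fold change 0.10, SE 0.06, 95% interval −0.03 to 0.24; edgeR adjusted p = 0.487). With quantile normalization the value turned to −0.03, and it was 0.067 leaving out ASO library 2 and 0.16 leaving out ASO library 3. miR-24-1-3p had a log2 fold change of 0.10 (edgeR adjusted p = 0.489), which rests on nearly the same counts.

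In edgeR's quasi-likelihood test 0 of the 7 members were called, against 0.134% of the 745 entries tested (1 entry). DESeq2 also called 0 members, against 21 of the 745 entries. Its lowest adjusted p among members was 0.100, for miR-23b-3p, followed by 0.138 for miR-23a-3p and miR-27a-3p. Limma with quantile normalization called 0 members, against 3 of the 745 entries. At an unadjusted p under 0.05, 3 members were higher with ASO (miR-23a-3p, miR-23b-3p and miR-27a-3p), against 4.43% of all entries. The same 3 had all ASO libraries above all controls, against 3.09% of all entries, or 8.32% with separate groups in either direction. With CPM on library totals, without TMM scaling, miR-27a-3p alone kept separate groups, against 2.82% of all entries. All 7 members, which hold 6 unlike sets of counts, had a log2 fold change above 0, as did 51.7% of entries, and the signs of the 3 miR-24 entries turned with quantile normalization. The median was 0.10 for the members, or 0.16 with identical counts taken once. It was 0.05 for the known microRNAs tested and 0.01 for all entries tested. Since the members share libraries, seeds and in part counts, they are not independent of each other.

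**Figure D2:**
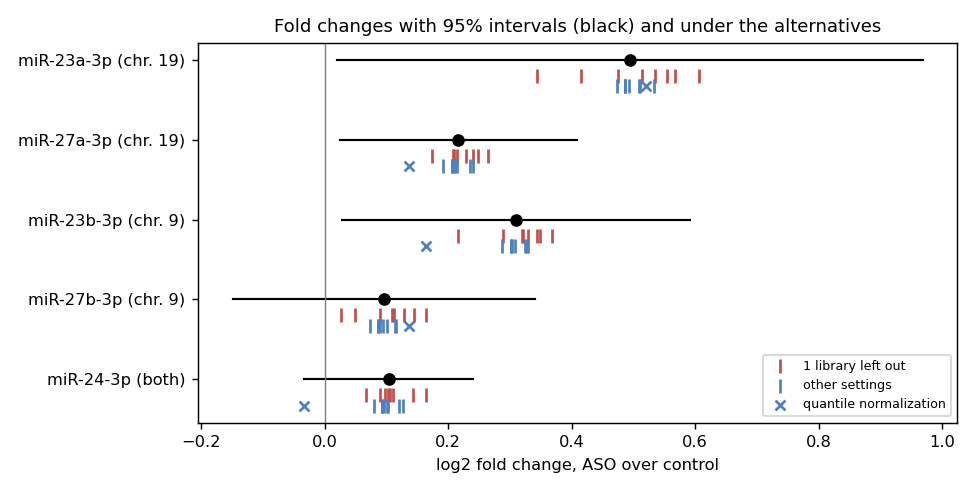
Log2 fold change of ASO over control (x axis) for the 5 separable entries, with the main value and its 95% interval in black and the values under other settings below it. The main values and those under other settings lie above 0, apart from miR-24-3p with quantile normalization (−0.03). The 95% intervals of miR-27b-3p (−0.15 to 0.34) and miR-24-3p (−0.03 to 0.24) cross 0. The values of miR-23a-3p reach down to 0.34 when control library 1 is left out.

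The ratio of paralogs within a library compares the clusters without any scaling between libraries. miR-23b-3p outnumbered miR-23a-3p by 2.08 to 3.14 times, whereas miR-27b-3p outnumbered miR-27a-3p by 11.5 to 17.2 times, so the excess of chromosome 9 counts was unlike for the seed families. It followed that, within chromosome 9, miR-27b-3p had 8.65 to 11.9 times the counts of miR-23b-3p, while within chromosome 19 miR-27a-3p had 1.25 to 2.79 times those of miR-23a-3p.

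The chromosome 19 paralog took 29.2%, 32.4%, 29.2% and 29.8% of miR-23 counts in ASO libraries 1 to 4, against 24.2%, 26.3%, 29.1% and 29.4% in control libraries 1 to 4. Control libraries 1 and 2 were low, ASO library 2 was high and the groups overlapped. In log2 the ratio of miR-23a-3p to miR-23b-3p averaged −1.21 ± 0.10 over ASO libraries and −1.42 ± 0.18 over controls, which differ by 0.21. The exact two-sided permutation test gave p = 0.114, adjusted p = 0.286 over the 5 ratios computed, which include those within a cluster added later. Its 70 arrangements allow a smallest p of 0.0286. After adjustment 1 ratio alone cannot go below 0.143, and at least 3 of the 5 would have to reach the smallest p for any to pass. Without control library 1 the difference was 0.13.

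For miR-27 the chromosome 19 share was 5.85%, 5.63%, 8.0% and 6.82% in ASO libraries 1 to 4, against 6.97%, 6.17%, 5.74% and 5.49% in control libraries 1 to 4. ASO library 3 was the highest, control library 1 lay among the ASO libraries, and the groups overlapped. The log2 ratio of miR-27a-3p to miR-27b-3p averaged −3.84 ± 0.25 with ASO and −3.95 ± 0.16 in controls. Its difference of 0.11 (exact permutation p = 0.514, adjusted p = 0.643) shrank to 0.0028 when ASO library 3 was left out and to 0.058 when control 4 was left out. It was 0.18 when either ASO library 2 or control 1 was left out, and 0.16 when ASO library 1 was. For the miR-24 entries the log2 ratio of miR-24-2-3p to miR-24-1-3p differed by 0.00022 (exact permutation p = 0.80), which follows from their shared counts. These tests of ratios could thus hardly pass, and that none did says little about whether the ASO changed the balance of the clusters.

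Ratios within a cluster were added after the values had been seen. miR-23b-3p over miR-27b-3p averaged −3.26 ± 0.13 in log2 with ASO and −3.48 ± 0.06 in controls. All 4 ASO libraries, at −3.40, −3.32, −3.11 and −3.18, lay above the controls, at −3.57, −3.47, −3.42 and −3.45. The difference of 0.22 had the smallest p that 70 arrangements can give (exact permutation p = 0.0286). Its adjusted p of 0.143 is the lowest that 1 ratio alone can have over the 5. Those 5 include the ratios added after the values had been seen, so neither value is that of a planned test. Within chromosome 19, miR-23a-3p over miR-27a-3p averaged −0.63 ± 0.23 with ASO and −0.95 ± 0.40 in controls (difference 0.32, exact permutation p = 0.229, adjusted p = 0.381). The groups overlapped, control library 1 was far the lowest at −1.48, and without it the difference was 0.14.

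**Figure D3:**
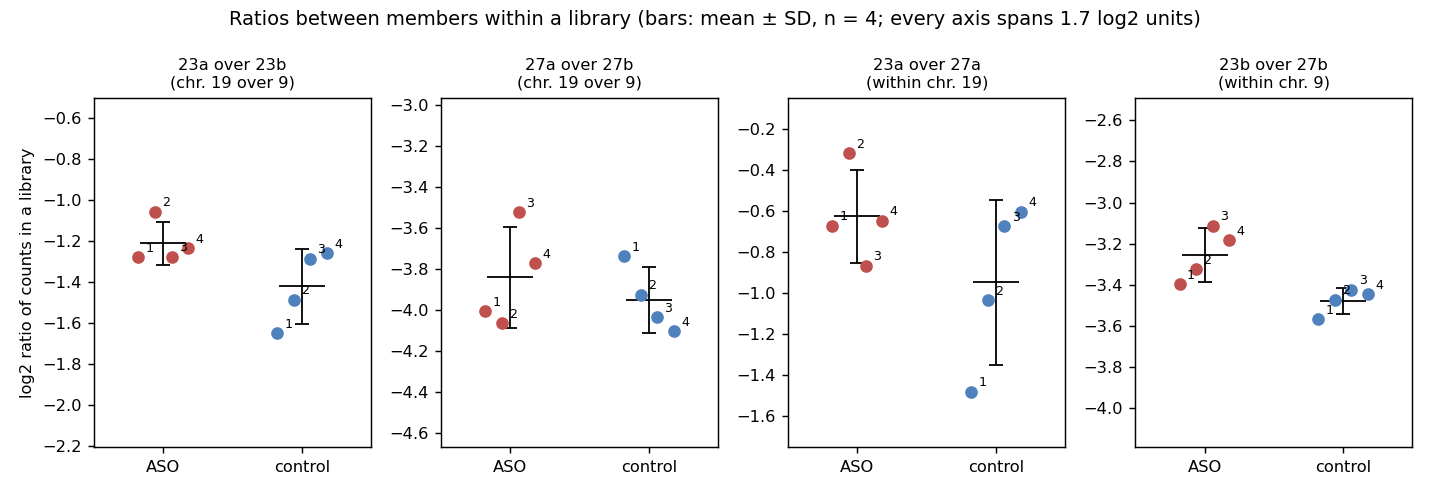
Log2 ratio of 2 members' counts within a library (y axes of equal span), for 4 ASO and 4 control libraries numbered by library, with mean ± SD. Groups overlap in 3 panels and are separate for miR-23b-3p over miR-27b-3p, where ASO libraries run from −3.40 to −3.11 and controls from −3.57 to −3.42.

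Across the 8 libraries the ratio between paralogs was no steadier than that between some members of 1 cluster. The SD of the log2 ratio was 0.18 for miR-23a-3p and miR-23b-3p and 0.20 for miR-27a-3p and miR-27b-3p. For members of 1 cluster it was 0.15 for miR-23b-3p and miR-27b-3p but 0.35 for miR-23a-3p and miR-27a-3p, the widest of all 10 pairs. The narrowest was 0.12, for miR-27b-3p and miR-24-3p. Counting error alone gave at most 0.029. Without control library 1 the SD was 0.12 for the miR-23 paralogs, 0.21 for the miR-27 paralogs, 0.14 within chromosome 9 and 0.22 within chromosome 19.

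Of 15 other paralogous pairs listed for comparison, both entries were in the table for 10, although miR-181a-5p and miR-181b-5p also share loci. For 7 of the 10 the SD of the log2 ratio was below that of miR-23a-3p and miR-23b-3p. The lowest was 0.041, for miR-17-5p and miR-93-5p. The highest was that of miR-103a-3p and miR-107, where miR-103a-3p was listed at 0 in 6 libraries and reached 166935 counts in another. A separate entry, miR-103a-2-3p, stood at 7811 to 18159 CPM over the 8 libraries. The zeros thus do not show that miR-103a was absent, and how reads were shared among its entries was not tested. Among pairs without zeros the highest was 0.44, for miR-148a-3p and miR-148b-3p. miR-10a-5p and miR-10b-5p were the 1 pair of the 10 whose ratios did not overlap between groups.

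**Figure D4:**
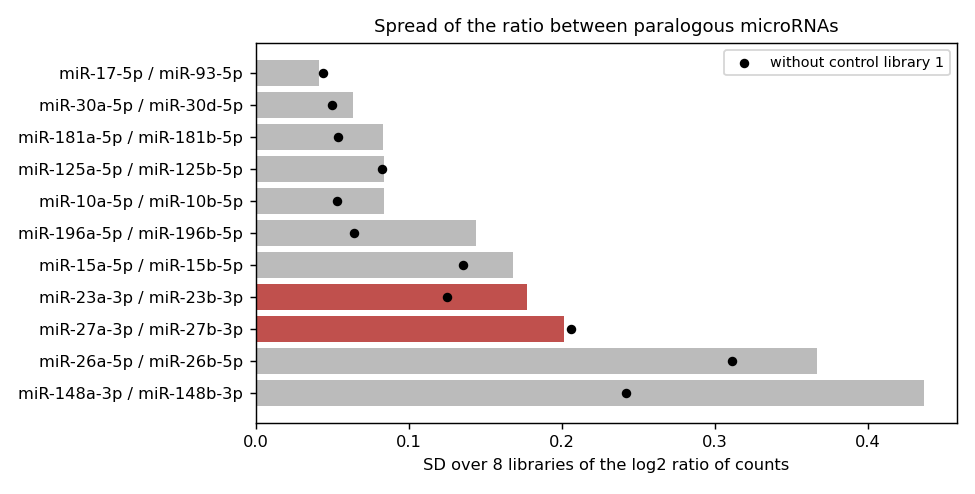
SD over 8 libraries of the log2 ratio of counts (x axis) for the miR-23 and miR-27 paralogs in red and 9 other pairs without zero counts in grey, with points for the value without control library 1. The miR-23 pair (0.18) and the miR-27 pair (0.20) lie between miR-15a-5p with miR-15b-5p (0.17) and miR-26a-5p with miR-26b-5p (0.37).

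Together the 7 entries as listed held 2.58%, 2.93%, 2.56% and 2.62% of all counts in ASO libraries 1 to 4, against 2.01%, 2.40%, 2.60% and 2.72% in control libraries 1 to 4. The groups overlapped, control library 1 being the lowest and ASO library 2 the highest. The difference was 0.24 percentage points (exact permutation p = 0.257), or 0.10 leaving out control 1 and 0.15 leaving out ASO library 2. This sum takes the shared miR-24 counts under each miR-24 entry. Counting miR-24 once, the share was 2.25% ± 0.149 with ASO and 2.04% ± 0.289 in controls. That difference was 0.21 points (exact permutation p = 0.257). A split by cluster was not among the planned tests, and its p-values are unadjusted. In it, miR-23a-3p and miR-27a-3p held 0.192% ± 0.0174 with ASO and 0.153% ± 0.0200 in controls (exact permutation p = 0.0571). miR-23b-3p and miR-27b-3p held 1.84% ± 0.136 with ASO and 1.69% ± 0.258 in controls (exact permutation p = 0.371).

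MIR3074 lies on the minus strand at the MIR24-1 locus (chr9:95086014-95086094), and its miR-3074-5p is the reverse complement of 20 bases of miR-24-3p. Its sequence, shown for that reason with the seed in capitals, follows.
miR-3074-5p: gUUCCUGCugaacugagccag
Its mean was 59.3 ± 5.04 CPM over ASO libraries and 63.6 ± 6.08 CPM over controls (log2 fold change −0.10, SE 0.10, edgeR adjusted p = 0.718), with overlapping groups. In counts it was 2.54% to 3.03% of miR-24-3p with ASO and 2.91% to 3.44% in controls (exact permutation p = 0.0571, unadjusted and not planned). Whether the counting used strand is not given in the sources used here, so reads of the opposite strands may not have been told apart.

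The known microRNAs whose counts kept the steadiest ratio to a member over the 8 libraries came from 321 candidates with a mean count of at least 100. For miR-24-2-3p, whose counts are those of miR-24-3p and belong to neither cluster alone, they were miR-28-3p (SD of the log2 ratio 0.051), miR-296-3p (0.054) and miR-16-3p (0.058), against a median of 0.23 over candidates. For miR-27b-3p they were miR-452-5p (0.048), miR-140-3p (0.062) and miR-151b (0.070), against a median of 0.24. The other members were added after the values were seen. For miR-27a-3p, the most abundant separable member on chromosome 19, the nearest was miR-152-3p (0.088, against a median of 0.25). For the miR-23 paralogs it was miR-16-5p for miR-23a-3p (0.083, against a median of 0.42 over candidates) and let-7d-5p for miR-23b-3p (0.053, against a median of 0.28). The mean of miR-16-5p was 1029 CPM over ASO libraries and 727 CPM over controls, and it did not pass the threshold (log2 fold change 0.50, edgeR adjusted p = 0.445).

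Of 15 other microRNAs studied in vessel growth, 12 were tested, of which 1 fell and 11 did not pass. The median log2 fold change was 0.09, against 0.05 for the known microRNAs tested and 0.01 for all entries. The 1 that fell was miR-503-5p, which restrains cell-cycle genes and which was the 1 entry called among all 745. It stood at 128 ± 9.07 CPM over ASO libraries and 240 ± 21.7 CPM over controls (log2 fold change −0.91, SE 0.09, edgeR adjusted p = 0.00854), without overlap. It was called in 14 of 17 other settings and not with control 2 left out (edgeR adjusted p = 0.0600), with the replicate block (0.241) or without the filter on low counts (0.113). The highest value was that of miR-20a-5p (0.52, SE 0.29, edgeR adjusted p = 0.483). The lowest, −1.37 for miR-18a-5p (SE 2.51, edgeR adjusted p = 0.860), rests on libraries at 0, which were 3 of the 4 with ASO and 1 of the 4 controls.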

How the data were processed

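Total RNA (Qiagen Advanced miRNeasy) went into NEB small RNA libraries, per the labels' protocols. Per the submitters' processing notes, bcl2fastq 2.20, Trimmomatic 0.30, edgeR 3.4.6 and build GRCh38 were used. Which aligner, counter and annotation were used is not given in the sources used here. The deposited table gives a whole-number count per entry and library, and 8 columns that the authors headed TPM but that are CPM on library totals, within 0.223 CPM. Per the file headers it also lists each entry's length.

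Tests took entries detected in 4 or more of 8 libraries whose mean count reached 10 (539 known, 206 predicted), with edgeR 4.0.16's quasi-likelihood test, TMM scaling and Benjamini-Hochberg adjustment at 0.05. All 7 members passed this filter. Ratios used a pseudocount of 0.5 counts and exact two-sided permutation tests over samples (SciPy 1.17.1). Wilson intervals hold counting error alone, as reads copied by PCR are not independent molecules. Limma 3.58.1 and DESeq2 1.42.0 were alternatives. The scripts were tested on simulated data. Replicate pairs differed beyond sampling noise (chi-square over degrees of freedom, 135 to 801).

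Members, lists and tests were chosen with earlier results of these data known. The rule for names took every member, miR-3074, the 3 steadiest ratios to the entry with most counts among those named for each cluster (miR-24-2-3p, whose counts cannot be assigned to a cluster, and miR-27b-3p), the extremes among other paralogous pairs and the extremes of the vessel list. miR-103a-3p with miR-107, miR-10a-5p with miR-10b-5p and others named as such were described after their values were seen.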

Additional observations from a re-analysis of the deposited data

Results flagged for a closer look

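miR-23c, another paralog, encoded on chromosome X, which shares the miR-23 seed and differs from miR-23b-3p by the substitutions G14U and A22C counted from the 5′ end, was outside the rule for members. It had 21 counts in ASO library 1 and 0 in the other 7 libraries, where 3 counts would be 0.257 to 0.367 CPM. It is listed because the rule left it out of the results above. Its counts rest on 1 library, and the other ASO libraries stood at 0 as the controls did. Dixon's test for a stray value flagged no library in the 22 groups of 4 values checked among members' levels, ratios and shares. With 4 values this test can flag only an extreme gap, and the groups share libraries and in part counts. It thus cannot decide whether a library was stray, such as control library 1 for miR-23a-3p or ASO library 3 for miR-27a-3p.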

How the results depend on the processing

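Of 196 values recomputed under alternatives, 54 were exact tests of ratios or shares that could not pass (smallest p of 0.0571 with 1 library left out, 0.125 under a block), so they bear on direction only, which 51 kept. Of the other 142, 139 kept their side of the threshold and, where they have one, their direction. They include the count of members called under each of the 17 settings of the fit, which was 0 throughout. That count repeats the calls of the members' fold changes, and miR-24 enters under each of its names, so these values are not separate checks. With quantile normalization miR-24-3p and miR-24-2-3p turned to −0.033 and miR-24-1-3p to −0.0473, and the cause was not tested. Leaving out 1 library moved the difference in log2 ratio between 0.13 and 0.26 for miR-23a-3p over miR-23b-3p, between 0.0028 and 0.18 for miR-27a-3p over miR-27b-3p, and between −0.00029 and 0.00089 for miR-24-2-3p over miR-24-1-3p, and the difference in share between 0.10 and 0.34 points. Calls over all entries numbered 1 as reported and 0 without a filter, 5 at a mean count of at least 100, 4 among known microRNAs or with identical entries merged, 3 with quantile normalization, 21 with DESeq2 and 0 to 5 with 1 library left out. Under a replicate block on library numbers 0 entries were called, and miR-23a-3p had a log2 fold change of 0.53 (edgeR adjusted p = 0.509). Libraries of equal number did not deviate together (r of −0.039 to 0.297), so the numbers were not taken to pair them. Arm ratios and summed arms were not run, since no 5p arm was among the entries. Counting error (SD of at most 0.0285 in log2) was below the spread between libraries for 4 of the 5 ratios, and above it for miR-24-2-3p over miR-24-1-3p (0.0157, against 0.00117), whose counts are shared.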
